A study of Mus musculus with 12 samples.

Results

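The cytosolic chaperonin TRiC (also called CCT) is described here through the messenger RNA of its 8 subunit genes, Tcp1, Cct2, Cct3, Cct4, Cct5, Cct6a, Cct7 and Cct8. The genes were taken by mouse symbol, and all 8 were found among the 30803 gene identifiers measured in WT and GSH libraries and among the 17558 gene symbols measured in Ctrl and Cas9 libraries. All samples were labelled as 4T1 cells, a mammary carcinoma line from a BALB/c mouse, kept in DMEM with serum with culture as the only treatment. The 4 groups differ by a genotype label, WT, GSH, Ctrl or Cas9, and the series describes GSH with WT as its reference and Cas9 with Ctrl as its reference. The labels do not expand GSH, do not name a gene targeted with Cas9, and do not say whether a group is 1 clone or whether its replicates are separate cultures, so the spread behind each p-value is that of these libraries and could be technical only. Values of 3 WT, 3 GSH, 3 Cas9 and 1 Ctrl library (Ctrl 3) were used, and Ctrl 1 and Ctrl 2 were not analysed here.

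TRiC is a barrel of stacked rings, each built from one copy of every subunit, that encloses unfolded proteins and closes over them with the energy of ATP. Its best known clients are actin and tubulin, beside proteins with WD40 propellers such as G protein beta subunits and the mitotic activator Cdc20. Prefoldin hands it actin and tubulin, phosducin-like proteins act as its cofactors, and the tubulin cofactors take over tubulin released from it. The subunits are paralogues that bind clients and ATP unequally, and growing and dividing cells, tumour cells among them, hold much of the complex.

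Levels are FPKM, fragments per kilobase of gene length scaled to the library total. Whole reads recovered from the steps of these values summed to between 18530559 and 30167195 in each WT or GSH library. In each Ctrl or Cas9 library the recovered reads summed to between 31619796 and 37382421. The library totals behind the FPKM of Ctrl and Cas9 were higher, between 33152215 and 39201544 reads. Each subunit rested on 5927 to 21768 reads in a WT or GSH library and on 7116 to 23938 in a Ctrl or Cas9 library, which puts the counting error of every level between 0.646 and 1.30%. All 10 epithelial carcinoma markers examined passed the filter on low values in both tables. The 5 leukocyte markers summed to 3.48 to 5.56 FPKM in WT and GSH libraries, where the pan-leukocyte gene Ptprc stood at 0.0174 to 0.0407 FPKM. They summed to 290.2 to 508.5 FPKM in Ctrl and Cas9 libraries, where Ptprc stood at 15.9 to 21.1 FPKM, so these libraries held leukocyte transcripts beside those of the labelled cell line. WT 3, GSH 2 and GSH 3 shared odorant-binding and urinary protein transcripts that are not known for carcinoma cells (199 to 496 FPKM summed over 9 genes, against 1.63 to 11.4 in the other 3 libraries).

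To show what the start regions of these genes hold, the RefSeq promoter table (build GRCm38.p6) was searched on both strands over the 250 bases before each start. It held 9 windows for 7 of the 8 genes; Cct4 was not among them. The GC box GGGCGG was present for all 7, in 8 of the 9 windows, against 32.7% of the 32851 windows of the whole table. The GC content of the 9 windows was 45.2 to 66.8%, beside a mean of 53.2% over all windows. The part of GC content in these matches was not tested. The CCAAT box was present for 4 genes, Cct3, Cct6a, Cct7 and Tcp1, in 4 of the 9 windows, against 33.8% of all windows. The ETS site CCGGAAG was present for Cct2 and Cct8, in 2 of the 9 windows, against 6.91% of all windows. The heat shock element GAANNTTC was found in 1 of the 9 windows, a second one of Cct2, against 6.69% of all windows, and its extended form, which contains it, in none, against 0.466%. The E-box CACGTG was found in none of the 9, against 6.02% of all windows. The stretches outside exons of Cct3 (chr3:88297000-88297115, plus strand) and Cct7 (chr6:85451284-85451504, plus strand) show the repeated CCAAT boxes, and those of Cct2 (chr10:117063853-117064102, minus strand) and Cct8 (chr16:87495874-87495998, minus strand) the ETS sites. Capitals mark CCAAT boxes, read as ATTGG on the printed strand, in the first 2 and ETS sites, read as CTTCCGG in Cct2, in the last 2:
Cct3: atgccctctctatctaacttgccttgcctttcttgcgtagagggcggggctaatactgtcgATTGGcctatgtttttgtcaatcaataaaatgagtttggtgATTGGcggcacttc
Cct7: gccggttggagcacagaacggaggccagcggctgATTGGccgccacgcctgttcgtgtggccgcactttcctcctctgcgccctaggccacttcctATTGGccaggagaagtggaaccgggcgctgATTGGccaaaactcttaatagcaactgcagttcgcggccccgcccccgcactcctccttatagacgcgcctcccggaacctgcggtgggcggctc
Cct2: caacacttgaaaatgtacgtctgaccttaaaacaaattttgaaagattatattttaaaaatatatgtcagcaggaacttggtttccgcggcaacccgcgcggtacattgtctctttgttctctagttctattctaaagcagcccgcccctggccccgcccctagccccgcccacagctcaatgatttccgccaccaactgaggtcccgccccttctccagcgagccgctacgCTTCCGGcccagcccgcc
Cct8: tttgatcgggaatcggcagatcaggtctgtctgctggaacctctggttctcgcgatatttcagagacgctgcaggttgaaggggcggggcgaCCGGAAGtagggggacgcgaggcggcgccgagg
These matches describe letters only. Cct7 holds 3 CCAAT boxes in its window, and Cct3 and Cct6a, whose window is not printed, hold 2 each.

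The comparison of GSH with WT asks how the transcripts differ between these genotypes. All 8 subunits rose in GSH, and for each of them all 3 GSH libraries stood above all 3 WT libraries. The rises were small and closely replicated, from 12.7% for Cct8 to 33.1% for Cct5. Across all genes tested with limma, 20.6% were called higher and 16.4% lower in GSH at a Benjamini-Hochberg adjusted p of 0.05 (37.0% in either direction), and 29.0% had all GSH libraries above all WT libraries. A call together with a log2 change of at least that of the smallest subunit was made for 14.9% of the genes. The median log2 change of the subunits was 0.26, beside 0.02 over all 12283 tested genes, and log2 changes here and below are on the log2(FPKM + 1) scale. Among all called genes 55.7% were higher in GSH, and 42.9% when the values were rescaled without mitochondrial genes, whose share of the reads was 8.17 to 8.48% among WT libraries and 5.72 to 6.10% among GSH libraries. All 8 subunits were called higher under that scaling as well. In bulk samples, fewer cells of a type and less RNA per cell cannot be told apart.

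**Figure D1:**
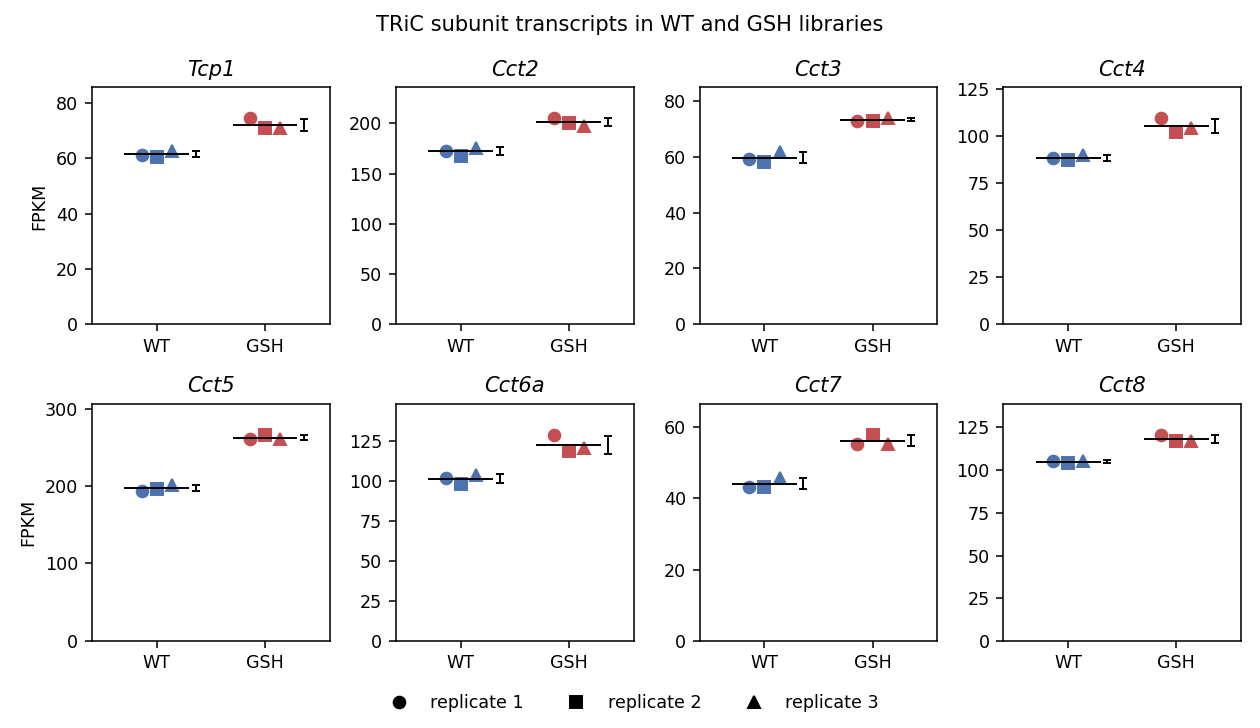
Level of each TRiC subunit in FPKM in the 3 WT and 3 GSH libraries, with points for libraries, a line for the group mean and a bracket for the SD. For each subunit the 3 GSH points lie above the 3 WT points.

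Cct5, the epsilon subunit, had the highest FPKM and the largest rise. It was measured at 194, 197 and 201 FPKM in WT 1 to 3 and at 261, 266 and 260.4 FPKM in GSH 1 to 3. The groups were far apart, with means of 197 ± 3.65 and 262 ± 3.28 FPKM (SD, n = 3 each; log2 change 0.41, SE 0.03, limma adjusted p = 0.00123).

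Cct7, the eta subunit, was measured at 43.1, 43.1 and 45.8 FPKM in WT and at 55.2, 57.8 and 55.3 FPKM in GSH. This was the lowest FPKM among the subunits at the deposited gene lengths and the next largest rise, 27.5% (log2 change 0.34, SE 0.04, adjusted p = 0.00198). Cct3, the gamma subunit, was measured at 59.2, 58.1 and 61.6 FPKM in WT and at 72.9, 72.8 and 73.7 FPKM in GSH. The GSH values lay within 1 FPKM of each other, and the rise was 22.6% (log2 change 0.29, SE 0.03, adjusted p = 0.00195).

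Cct6a, the widely expressed form of the zeta subunit, was measured at 102, 98.2 and 104 FPKM in WT and at 129, 119 and 120.4 FPKM in GSH. GSH 1 stood above the other GSH libraries, and Cct6a had the widest relative spread of the subunits in GSH (coefficient of variation 4.52%). Its mean rose by 20.9% (log2 change 0.27, SE 0.04, adjusted p = 0.00458). Cct4, the delta subunit, was measured at 88.2, 87.1 and 90.0 FPKM in WT and at 109.5, 102 and 104 FPKM in GSH. The rise was 19.0% (log2 change 0.25, SE 0.03, adjusted p = 0.00349), again with GSH 1 the highest.

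Tcp1, the alpha subunit after which the complex is named, was measured at 61.3, 60.4 and 62.6 FPKM in WT and at 74.3, 70.7 and 70.8 FPKM in GSH. Its rise of 17.1% was several times the spread within either group (log2 change 0.22, SE 0.03, adjusted p = 0.00366). Cct2, the beta subunit and the next highest in FPKM after Cct5 at the deposited gene lengths, was measured at 173, 168 and 175 FPKM in WT and at 205, 201 and 198 FPKM in GSH. It rose by 16.9% (log2 change 0.22, SE 0.03, adjusted p = 0.00340). Cct8, the theta subunit, was measured at 105.5, 104 and 105.5 FPKM in WT and at 121, 117 and 117 FPKM in GSH. This was the smallest rise, and its WT libraries were the closest together of any subunit (log2 change 0.17, SE 0.03, adjusted p = 0.00457).

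**Figure D2:**
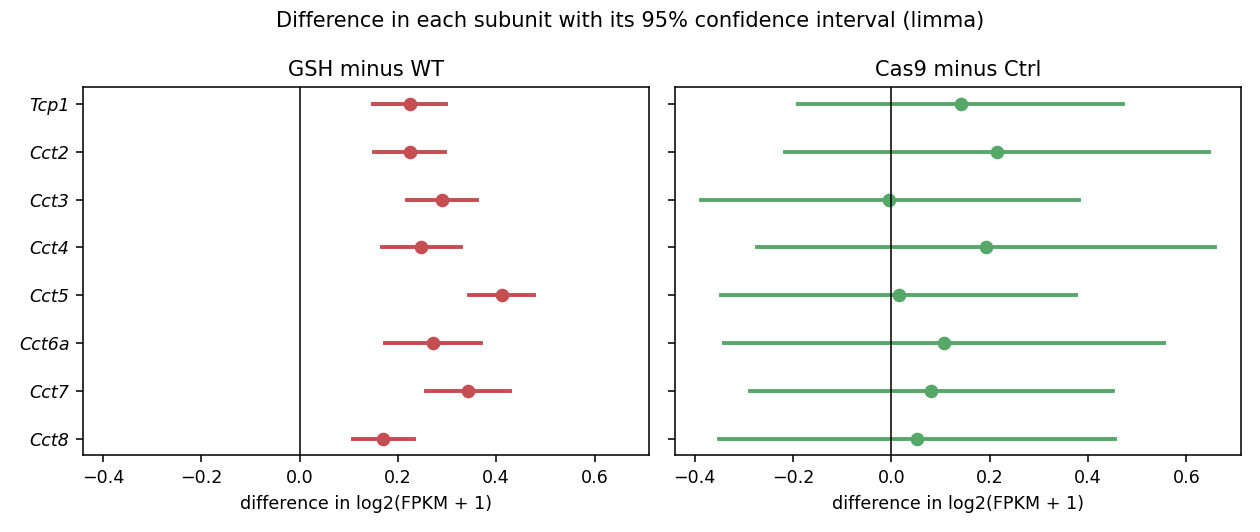
Log2 change of each subunit with its 95% interval for GSH against WT (3 libraries each) and for Cas9 against Ctrl (3 libraries against 1). Every interval of GSH against WT lies above 0, around changes of 0.17 for Cct8 to 0.41 for Cct5, and every interval of Cas9 against Ctrl spans 0.

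WT 3 was the highest WT library for 8 of 8 subunits (level with WT 1 for Cct8 at the digits given) and WT 2 the lowest for 7. Among GSH libraries no such order held: GSH 1 was the highest for 5 subunits, GSH 2 for 2 and GSH 3 for 1, and the lowest was GSH 2 for 4, GSH 3 for 3 and GSH 1 for 1. Summed over the 8 genes, the level was 829 ± 15.6 FPKM in WT and 1011 ± 14.5 FPKM in GSH (SD, n = 3 each). The libraries with odorant-binding transcripts were also compared on their own, a split chosen after seeing the data. Within WT 3, GSH 2 and GSH 3 the median log2 change was 0.20, and within WT 1, WT 2 and GSH 1 it was 0.31. All 8 subunits were higher in GSH in both sets, as must be so where all GSH libraries stand above all WT libraries. Each set has a single library in one arm, so all the spread in its test comes from the other arm's 2 libraries, and the lone library is assumed to vary like them. None of the 8 passed in limma (adjusted p 0.0903 to 0.121 and 0.0822 to 0.0963), where 0 and 4 of all tested genes passed.

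The makeup of the summed level shifted slightly toward Cct5. Its share of the summed FPKM was 23.8 ± 0.314% in WT and 26.0 ± 0.545% in GSH (SD, n = 3 each), a difference of 2.18 percentage points, with the groups apart. The shares of Cct8 (12.7 ± 0.173% and 11.7 ± 0.0585%), Cct2 (20.8 ± 0.175% and 19.9 ± 0.103%) and Tcp1 (7.41 ± 0.00717% and 7.11 ± 0.109%) were lower in GSH, also without overlap. Each of these 4 differences reached an exact permutation p of 0.1, two-sided, the smallest that 3 against 3 libraries allow (0.2 after adjustment over the 8 shares), so none could pass 0.05. The shares of Cct3, Cct4, Cct6a and Cct7 overlapped between the groups, with exact permutation p of 0.2 to 0.7. From recovered reads in place of FPKM the difference in the Cct5 share was 1.66 points.

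Set side by side per length, the order of levels in all 3 WT libraries was Cct5, Cct2, Cct8, Cct6a, Cct4, Tcp1, Cct3 and Cct7. The ranges of the neighbours Tcp1 and Cct3 overlapped, and those of all other neighbours were apart. In GSH libraries Cct6a stood before Cct8, with overlapping ranges, and Cct3 and Tcp1 overlapped again. The highest subunit exceeded the lowest 4.40 to 4.56 times in WT and 4.61 to 4.73 times in GSH.

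This spread depended on the gene length behind the values. The recovered reads imply that Cct7 was divided by 6778 bases in WT and GSH libraries and by 2452 bases in Ctrl and Cas9 libraries. For Cct3 these lengths were 6370 and 1957 bases, for Tcp1 5030 and 2499, and for Cct4 4201 and 1966. The lengths of Cct2 (2557 and 2217), Cct5 (2766 and 2133), Cct8 (3088 and 2391) and Cct6a (3499 and 2302) differed less. Dividing the WT reads by the shorter lengths, a choice made after seeing the data, brought the ratio of the highest to the lowest subunit to 2.07 to 2.14, and in GSH to 2.26 to 2.43. The order in WT then became Cct5 (256 scaled reads per kilobase), Cct2 (198), Cct3 (194), Cct4 (189), Cct6a (154), Cct8 (136), Tcp1 (124) and Cct7 (122). In GSH it became Cct5 (340.4), Cct3 (238), Cct2 (232), Cct4 (225), Cct6a (186), Cct7 (155), Cct8 (153) and Tcp1 (145), with Cct3 above Cct2 in all 3 libraries and Tcp1 in place of Cct7 as the lowest. In WT, Cct3 moved from the second lowest to the third highest place, while Cct5 kept the highest. In WT the ranges of Cct2, Cct3 and Cct4 overlapped between neighbours, as did those of Tcp1 and Cct7. In GSH the overlapping neighbours were Cct2 and Cct4, and Cct7 and Cct8. The difference in the Cct5 share between GSH and WT was 1.70 points at these lengths. A change of a gene between WT and GSH does not depend on its length.

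**Figure D3:**
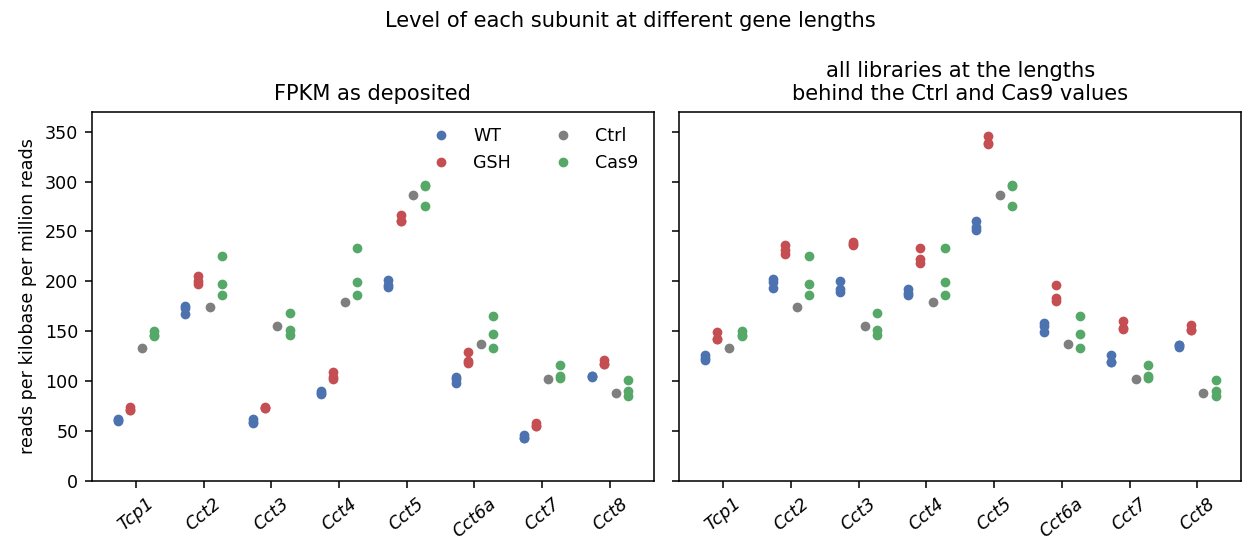
Level of each subunit, 1 point per library, for WT, GSH, Ctrl and Cas9, as deposited (FPKM, left) and with the scaled reads of all libraries divided by the shorter lengths used for Ctrl and Cas9 (right). Cct3, Cct4, Cct7 and Tcp1 of WT and GSH move up most at the shorter lengths and Cct5 stays the highest.

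Exons of other genes overlap some subunits in GENCODE M21: Mrpl18 and Acat3 lie opposite Tcp1, Psph opposite Cct6a, Pradc1 opposite Cct7 and Usp16 opposite Cct8. On the same strand, exons of the snoRNA genes Gm26130 and Snora15 overlap Tcp1 and Cct6a, and keeping strand would not separate their reads. The kit is not stated to keep strand, so reads of the shared exons cannot be told apart. Of these genes Psph, at 5.31 to 6.68 FPKM, rose (log2 change 0.19, adjusted p = 0.0209) and Usp16, at 6.23 to 7.23 FPKM, fell (log2 change -0.14, adjusted p = 0.0168), beside 98.2 to 129 FPKM for Cct6a and 104 to 121 FPKM for Cct8. Mrpl18 stood at 26.8 to 32.5 FPKM, beside 60.4 to 74.3 FPKM for Tcp1, and did not pass (log2 change 0.02, adjusted p = 0.829). Acat3 (0.956 to 1.31 FPKM) and Pradc1 (4.16 to 4.92 FPKM) did not pass. The pseudogene Cct3-ps1 stood at 0 to 0.0983 FPKM.

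Around the complex, 12 lists held 128 genes, of which 115 were tested, with 67 called higher and 10 lower in GSH and a median log2 change of 0.17. Each list's counts are to be read against the 20.6% of all genes called higher and 16.4% called lower. Within the odorant-transcript sets, none of the 115 passed.

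Of the 6 prefoldin subunits, which deliver actin and tubulin, 3 rose and none fell (median log2 change 0.11). Pfdn1 rose from 33.1 ± 1.87 to 39.0 ± 1.57 FPKM (log2 change 0.23, adjusted p = 0.0128), Pfdn5 from 30.4 to 35.8 FPKM (0.23, adjusted p = 0.0120) and Pfdn2 from 25.0 to 27.5 FPKM (0.13, adjusted p = 0.0177). Vbp1 (14.9 and 15.8 FPKM), Pfdn6 (20.4 and 21.3 FPKM) and Pfdn4 (8.39 and 7.95 FPKM in WT and GSH) did not pass. The phosducin-like partners had 3 tested genes and none passed: Pdcl was at 4.51 and 5.04 FPKM, Pdcl3 at 7.96 and 8.92 FPKM (adjusted p = 0.0502) and Txndc9 at 7.40 and 7.13 FPKM. Pdc was below the filter and Pdcl2 was not in the table. In the prefoldin-like R2TP complex, which assembles large protein complexes with HSP90, 4 of 8 rose and 1 fell. The AAA+ ATPase genes Ruvbl1 (35.1 to 45.0 FPKM, log2 change 0.35) and Ruvbl2 (52.0 to 59.4 FPKM, 0.19) rose with Wdr92 (8.04 to 10.1 FPKM, 0.30), and Pdrg1 fell from 10.3 to 7.67 FPKM (-0.39).

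Of 13 tubulin genes tested, 10 rose and none fell, with a median log2 change of 0.36. Tuba1c rose from 63.4 ± 4.49 to 94.2 ± 4.70 FPKM (0.57), Tuba1a from 45.2 to 61.8 FPKM (0.44), Tubb5 from 331 to 441 FPKM (0.41) and Tubb4b from 147 to 184 FPKM (0.32). Tubulin genes are near-identical in places, and reads may be split between them. Of 7 actin and actin-related genes tested 5 rose and none fell (median 0.21), among them the cytoplasmic actins Actg1 (440.3 to 600.1 FPKM, 0.45) and Actb (736 to 908 FPKM, 0.30) and the ARP2/3 subunit Actr3 (44.5 to 52.8 FPKM, 0.24). Of the 6 tubulin folding cofactors tested 3 rose, Tbcb (0.31), Tbcd (0.24) and Tbcc (0.18), and Tbce fell (-0.14). Of 17 WD40 and other clients tested 6 rose, 1 fell and 10 did not pass (median 0.09). The G protein beta subunit Gnb1 rose from 56.1 to 75.1 FPKM (0.41), the ribosomal scaffold Rack1 from 281 to 358 FPKM (0.35) and Cdc20 from 64.6 to 76.1 FPKM (0.23). Trp53, the tumour suppressor gene and the only faller, went from 35.3 ± 0.480 to 25.4 ± 0.332 FPKM (-0.46, adjusted p = 0.00112).

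**Figure D4:**
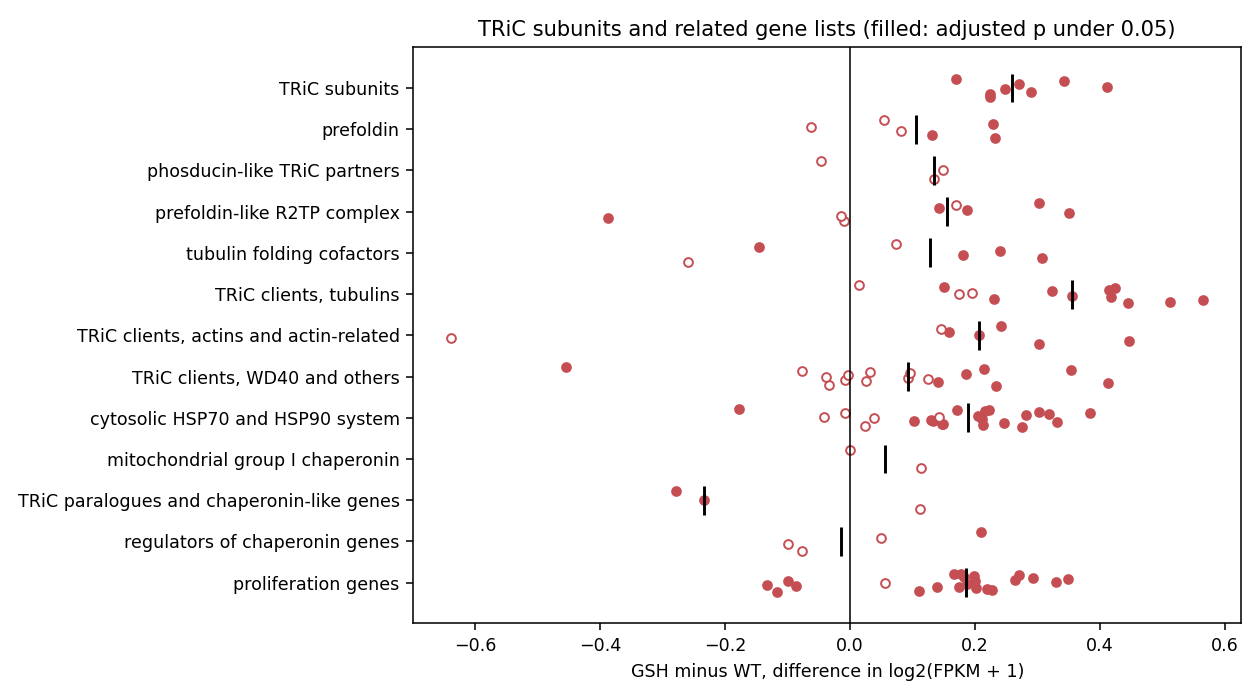
Log2 change, GSH against WT, of each tested gene of the subunits and the 12 lists, with called genes filled and the median of each list marked. The 8 subunits are all to the right of 0, the tubulins have a median of 0.36 and the chaperonin-like genes a median of -0.23.

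Of 24 tested genes of the cytosolic HSP70 and HSP90 system 18 rose and 1, the ubiquitin ligase gene Stub1, fell (median 0.19). Among the risers were the HSP90 co-chaperones Fkbp4 (58.0 to 76.0 FPKM, 0.39) and Cdc37 (26.2 to 32.9 FPKM, 0.32), Hsp90ab1 itself (959 to 1206 FPKM, 0.33) and the constitutive HSP70 gene Hspa8 (336 to 406 FPKM, 0.28). The mitochondrial group I chaperonin, the structural counterpart of TRiC in that organelle, did not pass: Hspd1 stood at 292 ± 9.86 and 316 ± 18.4 FPKM (adjusted p = 0.118) and Hspe1 at 100.5 ± 8.02 and 100.4 ± 6.67 FPKM. The chaperonin-like genes of Bardet-Biedl syndrome, relatives of the TRiC subunits, did not rise. Bbs12 fell from 12.1 ± 0.479 to 9.78 ± 0.521 FPKM (-0.28, adjusted p = 0.00604), Bbs10 fell from 1.74 to 1.33 FPKM (-0.23) and Mkks (1.12 and 1.29 FPKM) did not pass. Cct6b, the testis form of the zeta subunit, at 0.0747 and 0.0309 FPKM, and Cct8l1, at 0 and 0.00563 FPKM, were below the filter.

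Of the regulators listed, 1 of 4 tested passed: Max, the partner of MYC, rose from 17.4 to 20.3 FPKM (0.21). Myc (113 and 117 FPKM), the heat shock factor gene Hsf1 (12.9 and 12.2 FPKM) and Hsf2 (4.14 and 3.79 FPKM) did not pass, and Mycn was below the filter. Of 22 proliferation genes 17 rose and 4 fell (median 0.19). Their 4 smallest p belonged to the replication helicase genes Mcm6 (39.0 to 47.3 FPKM, 0.27) and Mcm3 (56.1 to 69.0 FPKM, 0.29), the mitotic kinase gene Cdk1 (27.4 to 32.2 FPKM, 0.23) and cyclin B1, Ccnb1 (33.6 to 39.3 FPKM, 0.22). Mki67, Aurkb, Bub1 and Birc5 fell. Summed, the proliferation genes stood at 923 to 944 FPKM in WT and 1025 to 1029 FPKM in GSH, and their part in the rise of the subunits was not tested.

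The comparison of Cas9 with Ctrl rests on a single Ctrl library, and the spread in its test comes from the Cas9 libraries. limma draws the spread of each gene toward that of other genes of like level. An interval is therefore not the replicate spread of its own gene alone. None of the 8 subunits passed in limma, none had an unadjusted p under 0.05, and the median log2 change was 0.09, beside -0.01 over all genes. Of all 11407 genes tested 0 passed (0.0%), and 1.84% had an unadjusted p under 0.05. For 4 subunits, Tcp1, Cct2, Cct4 and Cct7, all 3 Cas9 libraries stood above Ctrl 3, which was so for 20.1% of all genes.

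**Figure D5:**
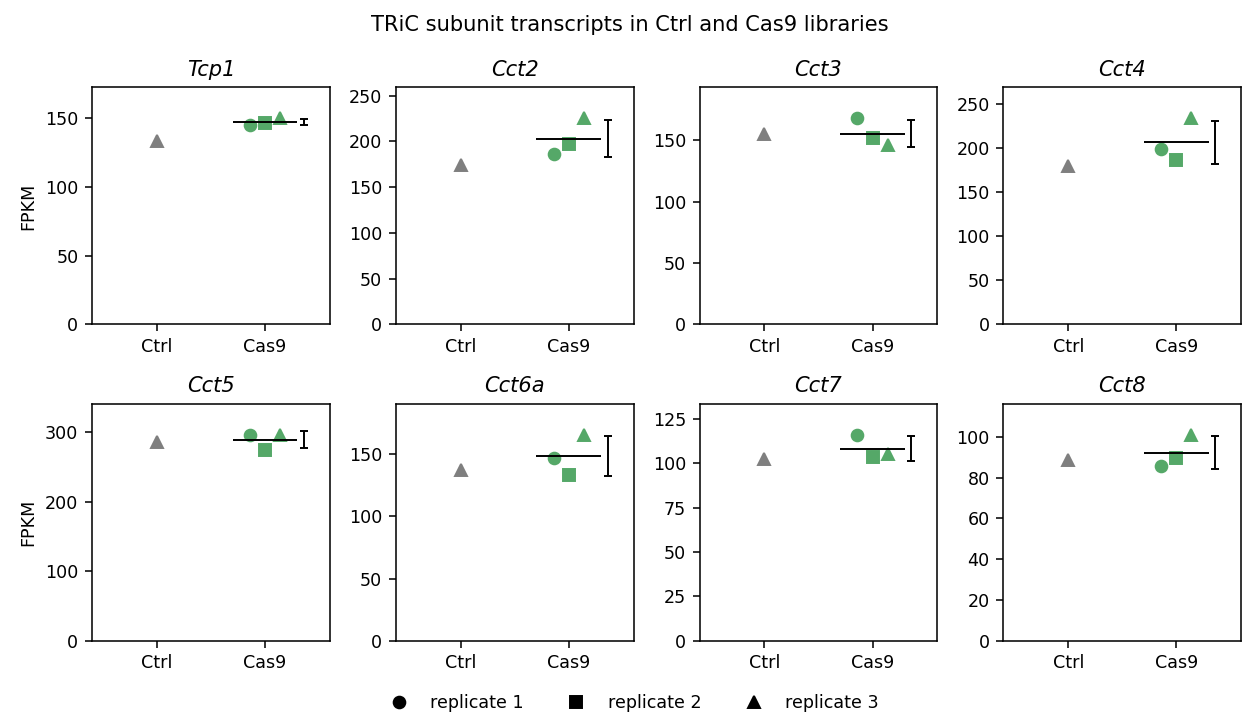
Level of each subunit in FPKM in Ctrl 3 and the 3 Cas9 libraries, with points for libraries, a line for the Cas9 mean and a bracket for its SD. Ctrl 3 lies below all Cas9 points for 4 subunits, and the Cas9 points spread most for Cct4 (coefficient of variation 11.9%).

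Tcp1 was measured at 133 FPKM in Ctrl 3 and at 145, 147 and 149.8 FPKM in Cas9 1 to 3, the tightest of the subunits among Cas9 libraries (log2 change 0.14, 95% interval -0.19 to 0.47). Cct2 was at 174 FPKM in Ctrl 3 and at 186, 197 and 225 FPKM in Cas9 (0.22, -0.22 to 0.65). Cct4 was at 179.5 FPKM in Ctrl 3 and at 199, 186 and 233.5 FPKM in Cas9 (0.19, -0.27 to 0.66). The Cas9 libraries lay above Ctrl 3 for these genes, yet every interval reaches below 0. The Tcp1 interval (SE 0.127) owes its width mostly to the spread of other genes. Its own Cas9 values were close together (coefficient of variation 1.65%).

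Cct7 was at 102 FPKM in Ctrl 3 and at 116, 103 and 105 FPKM in Cas9 (0.08, -0.29 to 0.45). Cct5 was at 286 FPKM in Ctrl 3 and at 296, 275 and 297 FPKM in Cas9 (0.01, -0.35 to 0.37). Cct6a was at 137 FPKM in Ctrl 3 and at 147, 133 and 166 FPKM in Cas9 (0.11, -0.34 to 0.55). For Cct5 and Cct6a the value of Ctrl 3 fell among the Cas9 values.

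Cct3 was at 156 FPKM in Ctrl 3 and at 168, 152 and 147 FPKM in Cas9 (-0.00, -0.39 to 0.38). Cct8 was at 88.6 FPKM in Ctrl 3 and at 85.5, 89.8 and 101 FPKM in Cas9 (0.05, -0.35 to 0.45). Cct3 was the only subunit with 1 Cas9 library above Ctrl 3. All 8 intervals span 0 and are wider than those of GSH against WT, so a test that was not passed does not show that these levels did not differ.

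Cas9 3 was the highest Cas9 library for 6 of 8 subunits, and its summed level was 1424 FPKM, against 1343 and 1283 in Cas9 1 and 2 and 1257 in Ctrl 3. In the same library the 5 leukocyte markers summed to 290 FPKM (411, 419.5 and 508.5 in Ctrl 3, Cas9 1 and Cas9 2) and the 7 macrophage markers to 1050 FPKM (2187, 2234 and 1988). The 10 epithelial markers summed to 2979 FPKM there, against 2730, 2093 and 2808, and the 22 proliferation genes to 911 FPKM, against 766, 540.3 and 772. The 5 neutrophil markers summed to 677 FPKM in Cas9 3, against 139 in Ctrl 3 and 226 and 178 in Cas9 1 and 2. Of these, S100a8 and S100a9 stood at 239 and 425 FPKM in Cas9 3, against 46.3 and 80.7 FPKM in Ctrl 3. Csf3r (13.1 and 11.6 FPKM) and Ly6g (0.185 and 0.1635 FPKM) differed less between Cas9 3 and Ctrl 3. Mpo was lower in Cas9 3 (0.0567 and 0.431 FPKM). The 6 fibroblast markers summed to 469.9 FPKM in Cas9 3, against 1030, 492 and 1577 in Ctrl 3, Cas9 1 and Cas9 2. The T cell markers present, Trac not among them, summed to 8.92 FPKM in Ctrl 3. This sum stood higher in all 3 Cas9 libraries, at 19.4, 21.8 and 13.5 FPKM, as did the neutrophil sum and Tcp1, Cct2, Cct4 and Cct7. The same held for 20.1% of all genes. Among Cas9 libraries the T cell sum was lowest in Cas9 3. Cd3g, Cd3e and Cd8a had unadjusted p of 0.0102, 0.0274 and 0.0440 in limma, and none passed after adjustment. Cd3d also stood above Ctrl 3 in all 3 Cas9 libraries (unadjusted p = 0.164 in limma). Cd4, below the filter, went the other way, at 1.01 FPKM in Ctrl 3 and 0.903, 0.904 and 0.166 FPKM in Cas9 1 to 3. The part of these cell type and proliferation transcripts in the subunit levels was not tested. Prefoldin showed the same absence of calls, with 0 of 6 passing, as did the other lists, none of whose genes passed. In these libraries, the order of levels was led by Cct5 (289 ± 12.3 FPKM in Cas9) and closed by Cct8 (92.1 ± 8.03 FPKM), with overlapping ranges for Cct4 and Cct2 and for Cct3, Cct6a and Tcp1.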

How the data were processed

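RNA of 4T1 cells was sequenced with the NEBNext Ultra RNA kit, per the labels' protocols. Tools listed in the submitters' processing notes, with no roles, are HTSeq (0.6.0), HISAT2 (2) and Bowtie2 (2.2.3), beside the build mm8. The deposited values state no unit and were taken as FPKM from the values. The authors scaled them to a library total and a gene length, as recovered whole reads show. Such reads were recovered for 99.3% of WT and GSH genes and 94.0% of Ctrl and Cas9 genes above 0. At GENCODE M21 merged exon lengths, 96.6% of WT and GSH genes above 0 gave whole reads within 0.15 read. The 2 tables were normalised separately, so tests stayed within each. limma 3.58.1 (R 4.3.3; lmFit, eBayes with trend) was fitted on log2(FPKM + 1) over genes whose mean FPKM reached 1, two-sided, with Benjamini-Hochberg adjustment at 0.05. Cas9 against Ctrl has 2 residual degrees of freedom, all from Cas9 libraries. Shares were compared with exact permutation tests. All 8 subunits are named, as are all genes of the short lists, up to 4 genes with the smallest p of the longer ones, and the 5 genes of most like pattern. Stub1, Mycn, the proliferation genes that fell and the genes overlapping a subunit were named after their values were seen. Members and lists were chosen with earlier results of these data known. Alternatives covered the pseudocount, the filter, scaling, the replicate block, a term for the libraries with odorant-binding transcripts, voom on recovered reads and leaving out each replicate. Subunits had a counting error of 0.646 to 1.30%.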

Additional observations from a re-analysis of the deposited data

How the results depend on the processing

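All 8 subunits stayed called higher in GSH under each of the 13 other settings tried on all 6 libraries or with 1 left out, with Cct5 at a log2 change of 0.37 to 0.42 and Cct8 at 0.13 to 0.18 (highest limma adjusted p over the subunits 0.0206). The median log2 change was 0.223 when rescaled without mitochondrial genes and 0.228 to 0.281 with each replicate left out in turn. Within WT 3, GSH 2 and GSH 3 it was 0.197 and within WT 1, WT 2 and GSH 1 it was 0.313, and in both sets, chosen after seeing the data and holding 3 libraries each, 0 subunits and 0 list genes (77 with all libraries) passed. Over all genes 4547 passed, 5187 with voom on recovered reads, 2998 without WT 1, and 0 and 4 within the sets. Deviations from the group means of same-numbered WT and GSH libraries correlated at 0.479, -0.107 and 0.209. WT 2 correlated better with GSH 1 (0.114) than with its own number, and so did WT 3 with GSH 2 (0.393). Deviations from a mean of 3 libraries are tied to each other, so these values cannot show whether the numbers pair the libraries. With the replicate block, 8 subunits, 70 list genes and 3867 genes in all passed, and the median log2 change was 0.26. No paired analysis was possible because Cas9 and Ctrl share only the number 3, so no fit with a block exists for that comparison. For Cas9 against Ctrl the change of Cct3 turned to 0.006 under relative log expression scaling and ranged from -0.061 to 0.037 with a Cas9 library left out (0.013 without Cas9 2), that of Cct5 from -0.004 to 0.05 (-0.002 without Cas9 1) and that of Cct8 from -0.016 to 0.103. Without Cas9 3, Cct6a went from 0.106 to 0.026, Cct4 from 0.193 to 0.10 and Cct2 from 0.215 to 0.137, without Cas9 2 Cct6a to 0.181 and without Cas9 1 Cct7 from 0.081 to 0.030. All of these are within the intervals, and the cause was not tested. Shares moved by more than the replicate spread only for Cct2 and Cct7 from recovered reads (-0.597 and 0.456 points) and for Cct2 and Cct8 at the shorter lengths (-0.609 and -0.757 points).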

Other observations

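Over the 6 WT and GSH libraries, 10298 genes were ranked by the Pearson correlation of their log2(FPKM + 1) with the mean of the 8 subunits, whose own correlations with it were 0.982 to 0.996. The 5 highest were Cavin1, a coat protein gene of caveolae (r = 0.999, log2 change 0.32), the mRNA export adaptor gene Alyref (0.998, 0.25), the actin capping gene Capzb (0.998, 0.31), Keap1 (0.998, 0.15) and the purine synthesis gene Paics (0.998, 0.28). Cavin1 stood at 34.0, 33.7 and 35.1 FPKM in WT and at 44.2, 42.5 and 42.3 FPKM in GSH. The correlations are a description over 6 libraries in 2 groups, they share the difference between WT and GSH, and they carry no test.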
